A study of Mus musculus with 4 samples.

Results

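Hedgehog signalling in the embryonic mammary gland was described through 9 genes, Shh, Ihh, Ptch1, Smo, Gli1, Gli2, Gli3, Hhip and Sufu, chosen by name as the ligands, receptors, transducers and transcription factors of the pathway. All 9 were listed at each of the 4 stages, among 32932 gene identifiers found in any of the gene lists. The data were single-cell RNA-seq of mammary tissue from female WT C57B6 mice (of the B6/N substrain by the study's methods), taken before birth at E13.5, at E14.5 or at E15.5, or else at birth (P0), with no transgene and no treatment named. Each stage had 1 library, made from the pooled rudiments of several embryos in a dissection of its own, so differences between stages and between libraries cannot be told apart. Live cells were sorted by EpCAM after removal of CD45+, CD31+ and Ter119+ cells (blood and endothelium), and transcripts were counted from their 3′ ends as UMIs (unique molecular identifiers). A minimum of 5000 UMIs and a maximum of 6% mitochondrial UMIs per cell left 235, 76, 816 and 503 cells, in order of stage. The study states the same limits but reports fewer cells at each stage, and any further filtering of its own was not rebuilt. The median depth of the cells kept here ran from 9226 UMIs at P0 to 25207 at E14.5.

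In the Hedgehog pathway, a secreted ligand binds the receptor Patched 1 and thereby releases Smoothened, and Smoothened converts the Gli factors from repressors to activators. Ptch1, Gli1 and Hhip are themselves transcribed in responding cells, so their RNA is widely read as a measure of pathway activity. In developing skin, hair placodes send Hedgehog to the dermis below them, whereas the mammary bud is known for keeping the pathway low, with Gli3 as the repressor.

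A cell was called epithelial where the summed UMIs of Epcam, Krt8, Krt18, Krt5 and Krt14 exceeded those of Col1a1, Col1a2 and Col3a1, and mesenchymal where the collagens were higher. Epithelial cells with at least 5 UMIs of Krt8 and Krt18, the simple keratins that mark the mammary bud, made up the Krt8/Krt18-rich epithelium, with 61, 23, 446 and 228 cells from E13.5 to P0. The Krt8/Krt18-poor epithelium held 37, 22 and 86 cells at the embryonic stages and 2 cells at P0, which were not compared, and the mesenchyme held 135, 31, 283 and 273 cells. At E13.5 the Krt8/Krt18-rich class went against the name of mammary bud. Of its 61 cells, 29 had at least 2 UMIs of Gabrp, Krt4 and Krt6a, genes of the periderm (the flat outer layer of fetal skin), and the bud genes Ndnf and Pthlh, which had no part in that choice, were at 0 in them. The other 32 cells held Ndnf at 149.9 CPM (UMIs of the gene per 1e6 UMIs of the class) and Pthlh at 228 CPM. The class is therefore called by its keratins throughout. In the Krt8/Krt18-poor cells of E15.5 the epidermal keratin Krt1 reached 759 CPM, against 5.71 CPM in the Krt8/Krt18-rich cells. A summed list of bud genes (Tbx3, Ndnf, Pthlh, Sostdc1, Wnt10b, Prlr, Krt19 and Lmo1) hardly differed, at 334 CPM against 364 CPM. The sum of these bud genes therefore did not set the classes of E15.5 apart, and it can hide opposite differences in single genes.

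Levels are given as CPM over all cells of a class with the exact 95% Poisson interval, and ratios with the exact conditional binomial interval. Only counting error inside a single library is covered by these intervals. With no replicate library there was no test, and a ratio was called higher or lower where it was at least 2-fold and its interval lay on a single side of 1. Among genes with at least 20 UMIs over both sides of a comparison, the percentage called the same way is given as the background. Against a class with 0 UMIs, the ratio was computed from 3 counts in that class. That bounds the empty side only, so the limit that adds counting error on the other side is given with it.

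The ligands were almost undetected. Shh, the ligand of hair placodes, had 3 UMIs in all, each in a different epithelial cell of E15.5, and Ihh, the ligand best known from cartilage and gut, had 1 UMI in 1 epithelial cell of E15.5. At the other stages both stood at 0 UMIs, in the kept cells as in the barcodes that the filter removed. A count of 0 allows (as 3 counts in all kept cells) up to 0.666 CPM at E13.5, up to 1.42 CPM at E14.5 and up to 0.586 CPM at P0, and a share of cells with a UMI of up to 1.28%, 3.95% and 0.596%. Inside the epithelium alone the bounds are looser. For the Krt8/Krt18-rich and Krt8/Krt18-poor classes, 3 counts are 2.49 and 3.59 CPM at E13.5 and 4.31 and 5.19 CPM at E14.5. For the Krt8/Krt18-rich class of P0 they are 1.16 CPM. The level of Shh at E15.5 was 0.163 CPM (0.0198 to 0.590) in the Krt8/Krt18-rich epithelium, 0.489 CPM (0.0124 to 2.72) in the Krt8/Krt18-poor epithelium and 0 in the mesenchyme.

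Of the 3 cells with Shh, 2 were Krt8/Krt18-rich cells with 20752 and 18942 UMIs and no Ptch1 or Gli1 UMI. The remaining one was a Krt8/Krt18-poor cell with 2 Ptch1 UMIs and 1 Gli1 UMI. The hair placode genes Foxi3 and Lhx2 were at 0 or 1 UMI in every epithelial class of every stage, while Dkk4, another placode gene, stood at 36.3 CPM in the Krt8/Krt18-poor cells of E14.5 and at 0 in both epithelial classes of E15.5. Other genes of the same list of 10 placode genes were found there, led by Sox9 at 503 CPM in the Krt8/Krt18-rich cells, and the summed list had 9, 9 and 4 UMIs in the 3 cells with Shh and 34 in the cell with Ihh. That list shares Wnt10b and Sostdc1 with the bud list. Cells without a ligand UMI are not given beside these sums, so the sums do not mark the 4 cells as placode cells. Sox2, which marks the dermal condensate beneath hair placodes, had 0 UMIs in the mesenchyme at all 4 stages. It is a single gene of a longer condensate list that also holds Bmp4, and it does not stand for the others. The study describes Bmp4 as enriched in its sub-epithelial mesenchyme at E13.5. Dhh, the ligand known from Schwann cells and gonads, had 1, 0, 14 and 2 UMIs from E13.5 to P0, and 11 of the 14 at E15.5 lay in Krt8/Krt18-rich cells (0.898 CPM).

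Ptch1 (chr13:63508328-63573598, minus strand, GRCm38) encodes the receptor that holds Smoothened off. Its 3 levels at E13.5 lay within each other's intervals, at 19.9 CPM (12.8 to 29.6) in the Krt8/Krt18-rich epithelium, 20.3 CPM (11.8 to 32.6) in the Krt8/Krt18-poor epithelium and 20.3 CPM (15.1 to 26.9) in the mesenchyme. Of the 24 UMIs of the Krt8/Krt18-rich class, 16 lay in the 29 cells with periderm genes and 8 in the 32 without. Its level is therefore not that of bud cells alone. At the later stages the mesenchyme held more. At E14.5 it was 38.2 CPM against 20.1 CPM in the Krt8/Krt18-rich cells, a ratio of 1.90 whose interval reached 1 (0.984 to 3.85). Ptch1 was 3.58-fold higher in the mesenchyme at E15.5 (2.77 to 4.65), with 26.3 CPM against 7.35 CPM. The ratio was 3.39 at P0 (1.41 to 9.37), with 9.17 CPM against 2.70 CPM, on 7 epithelial UMIs. Within the epithelium of E15.5, the Krt8/Krt18-rich cells held 0.334 of the Ptch1 level of the Krt8/Krt18-poor cells (0.231 to 0.489), which at 22.0 CPM were close to the mesenchyme (mesenchyme over poor, 1.20, 0.860 to 1.69). That ratio was 0.520 (0.334 to 0.838), short of 2-fold, where 2 UMIs of Krt8 and Krt18 were enough for the rich class.

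Hhip (chr8:79965851-80058006, minus strand) encodes a membrane protein that binds and holds back the ligands. At E15.5 it had the lowest epithelial share of the members. Of its 211 UMIs, 170 lay in the mesenchyme of E15.5, at 23.4 CPM, against 3 UMIs in the Krt8/Krt18-rich epithelium (0.245 CPM) and 1 UMI in the Krt8/Krt18-poor epithelium. The mesenchymal level was 95.6-fold that of the Krt8/Krt18-rich cells (32.2 to 468). At E13.5 and P0 the mesenchyme held 8.30 and 4.39 CPM and the Krt8/Krt18-rich epithelium 0 UMIs. With 3 counts in place of 0, the mesenchyme was 3.34-fold higher at E13.5, with a lower limit of 2.47. At P0 it was 3.79-fold higher in the same way, with a lower limit of 2.59, on 11 UMIs, below the minimum of 20. At E14.5 the mesenchyme had 4 UMIs and the difference was not detectable at this depth. Other mesenchyme genes also had low counts in epithelial cells of E15.5. A list of 8 of them, such as Pdgfra and Dcn, stood in the Krt8/Krt18-rich cells at 0.596% (0.522 to 0.678) of its mesenchymal level. Hhip stood there at 1.05% (0.214 to 3.11) of its own. The source of these counts was not tested.

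Gli1 (chr10:127329882-127341974, minus strand), a Gli factor whose own transcription depends on the pathway, was likewise mesenchymal. From E13.5 to P0 its mesenchymal level was 9.96, 45.3, 19.6 and 7.98 CPM. In the Krt8/Krt18-rich epithelium it was at 0 UMIs at E13.5 and P0 and at 8.63 and 1.55 CPM at E14.5 and E15.5. The mesenchyme was higher at every stage, by 5.26-fold at E14.5 (2.20 to 15.2) and 12.6-fold a day later (7.78 to 21.6). With 3 counts in place of 0, it was 4.0-fold higher at E13.5 (24 UMIs against 0, lower limit 3.01). At birth it was 6.89-fold higher in the same way (20 UMIs against 0, lower limit 5.10). The 6 epithelial UMIs of E14.5 came from 2 cells, 1 of which held 5. At E15.5 the 19 UMIs of the Krt8/Krt18-rich class lay in 19 different cells of 446 (4.26%, against 35.7% of mesenchymal cells, or 1.35% and 6.71% after thinning to 5000 UMIs), and the level was 7.93% (4.64 to 12.8) of the mesenchymal level, above the 0.596% of the mesenchyme list in the same cells. The Krt8/Krt18-poor epithelium of E15.5 had more, 6.36 CPM, so that the Krt8/Krt18-rich cells held 0.244 of it (0.114 to 0.538). The mesenchyme list was also higher in those cells, at 3.47% (3.03 to 3.95) of its mesenchymal level. The collagens that defined the tissues were not, at 0.480% (0.406 to 0.564) there and 0.596% (0.561 to 0.632) in the Krt8/Krt18-rich cells. The part of mesenchymal RNA in the Gli1 value was not tested.

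**Figure D1:**
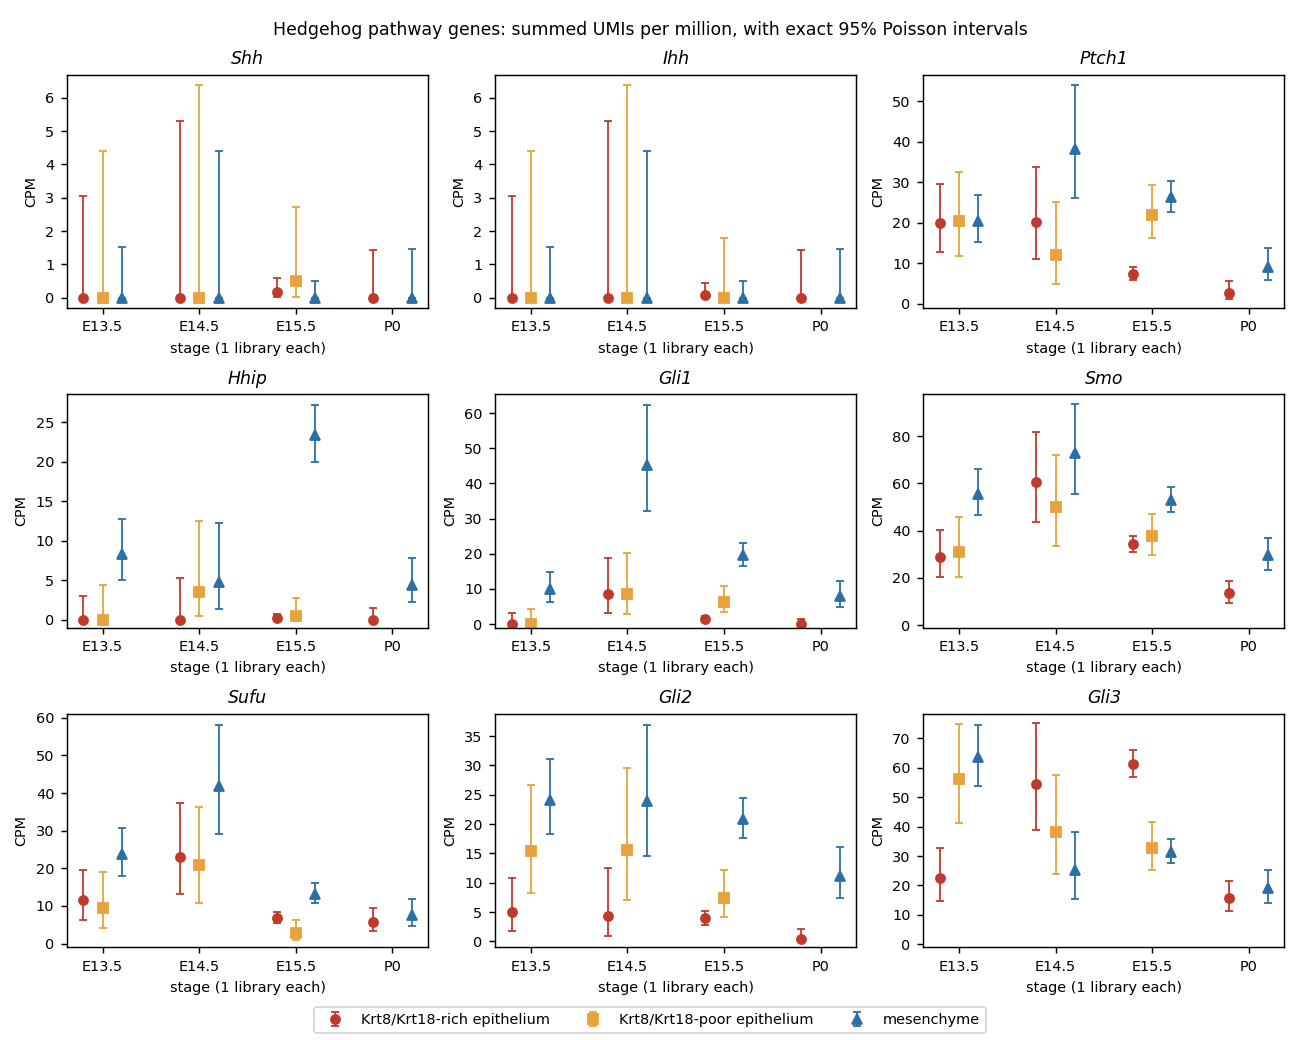
Summed UMIs as CPM (vertical axis) of the 9 genes at each stage in Krt8/Krt18-rich epithelium, Krt8/Krt18-poor epithelium and mesenchyme, with exact 95% Poisson intervals as bars and 1 library per stage; the Krt8/Krt18-poor cells of P0 (2 cells) are not drawn. Hhip and Gli1 are highest in the mesenchyme, at 23.4 CPM for Hhip at E15.5 and 45.3 CPM for Gli1 at E14.5, whereas Gli3 at E15.5 is highest in the Krt8/Krt18-rich epithelium, at 61.3 CPM.

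The promoters of Ptch1 and Hhip are shown because these response genes were held so differently by the epithelium. Both run from 250 bases before to 50 bases after the RefSeq start (GRCm38.p6), at chr13:63565686-63565985 and chr8:80057959-80058258, both on the minus strand, with each CpG in capitals:
Ptch1: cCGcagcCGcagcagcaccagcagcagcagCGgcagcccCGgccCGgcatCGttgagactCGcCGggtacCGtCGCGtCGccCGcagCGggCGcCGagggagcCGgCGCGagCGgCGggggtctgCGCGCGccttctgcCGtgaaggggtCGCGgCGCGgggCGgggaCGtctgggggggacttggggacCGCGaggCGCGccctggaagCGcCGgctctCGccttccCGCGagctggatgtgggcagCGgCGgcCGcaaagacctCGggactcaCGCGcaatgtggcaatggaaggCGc
Hhip: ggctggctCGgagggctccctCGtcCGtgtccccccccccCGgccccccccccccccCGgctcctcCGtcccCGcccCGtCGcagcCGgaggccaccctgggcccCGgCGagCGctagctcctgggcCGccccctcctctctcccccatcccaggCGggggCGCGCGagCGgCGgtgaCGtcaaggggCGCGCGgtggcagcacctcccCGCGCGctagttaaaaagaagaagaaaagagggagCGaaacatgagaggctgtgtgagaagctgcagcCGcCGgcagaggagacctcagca
Ptch1 had 47 CpGs and 76.3% GC and Hhip 30 CpGs and 73.7% GC, against a median of 52.7% GC over 32851 promoters of the table. The Gli consensus GACCACCCA was found on neither strand in any of the 7 member promoters in the table, nor was its core CCACCCA, which 9.30% of all promoters held. This says only that these letters are not in these windows. The Ptch1 window lies inside the gene span given above, not at the minus-strand start of that span at 63573598, where no sequence was searched.

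Smo and Sufu, which pass the signal on inside the cell, were found in every class. Smo (chr6:29735503-29761365, plus strand), the receptor that Ptch1 restrains, ran in the mesenchyme from 55.6 CPM at E13.5 through 72.8 and 53.0 CPM to 29.5 CPM at P0, and in the Krt8/Krt18-rich epithelium from 29.0 through 60.4 and 34.2 CPM to 35 UMIs in 228 cells at P0. The mesenchymal excess was 1.92-fold (1.31 to 2.87), 1.21-fold (0.800 to 1.83), 1.55-fold (1.35 to 1.78) and 2.18-fold (1.44 to 3.37), and it passed 2-fold at P0 alone. Between the epithelial classes of E15.5 the Smo ratio was 0.908 (0.711 to 1.17).

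Sufu (chr19:46396896-46488804, plus strand) encodes the cytoplasmic protein that tethers the Gli factors. It was 2.04-fold higher in the mesenchyme than in the Krt8/Krt18-rich epithelium at E13.5 (1.12 to 3.96), and the ratios of 1.82, 1.93 and 1.31 at the later stages were below 2-fold. The E13.5 call was lost under 3 alternatives, for example at 1.93 (1.08 to 3.68) with up to 10% mitochondrial UMIs. The Krt8/Krt18-poor cells of E15.5 held 6 Sufu UMIs, 2.93 CPM, less than the 6.86 CPM of the Krt8/Krt18-rich cells by a ratio of 2.34 (1.03 to 6.55), and 3 of the 6 lay in 1 cell. That call was lost under each other limit on Krt8 and Krt18, where the ratio was 1.37 and 1.65.

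The remaining Gli factors went different ways. Gli2 (chr1:118834132-119053619, minus strand), the main activator of the pathway, was higher in the mesenchyme than in the Krt8/Krt18-rich epithelium at every stage, by 4.84-fold (2.09 to 13.7), 5.53-fold (1.64 to 29.1) and 5.31-fold (3.81 to 7.51) before birth and by 28.9-fold (4.78 to 1183) at P0, the last on 1 epithelial UMI. The mesenchymal levels were 24.1, 23.9, 20.8 and 11.2 CPM. The Krt8/Krt18-poor epithelium lay between, and the mesenchyme was 1.55-fold (0.839 to 3.08), 1.53-fold (0.667 to 3.82) and 2.84-fold (1.67 to 5.19) above it.

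Gli3 (chr13:15463235-15730026, plus strand), the main repressor of the pathway, stood higher in the epithelium relative to the mesenchyme than any other member at E15.5. At E15.5 the Krt8/Krt18-rich cells held 61.3 CPM (751 UMIs), the Krt8/Krt18-poor cells 32.8 CPM and the mesenchyme 31.4 CPM. The mesenchyme over Krt8/Krt18-rich ratio was 0.512 (0.440 to 0.595) at E15.5 and 0.459 (0.256 to 0.801) at E14.5, where the epithelium had 54.6 CPM and the mesenchyme 25.1 CPM. So Gli3 was the member that was higher in the Krt8/Krt18-rich epithelium than in the mesenchyme at both stages, although only the E14.5 ratio passed 2-fold, and that one reached 0.623 (0.306 to 1.30) where 10 UMIs of Krt8 and Krt18 were required. At P0 the levels were 15.8 and 19.1 CPM (1.21, 0.781 to 1.88). A UMI of Gli3 was found in 68.4% of the 446 Krt8/Krt18-rich cells of E15.5 and in 44.2% of the 283 mesenchymal cells, at median depths of 24831 and 24376 UMIs. After every cell was thinned to 5000 UMIs, the shares were 27.8% and 13.1%.

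At E13.5 the order was the opposite, with 63.5 CPM of Gli3 in the mesenchyme, 56.2 CPM in the Krt8/Krt18-poor and 22.4 CPM in the Krt8/Krt18-rich epithelium, and the mesenchyme was 2.84-fold above the last (1.88 to 4.44). The cells with periderm genes stood apart within this class. They held 1 of the 27 Gli3 UMIs, 1.81 CPM (0.0459 to 10.1), and the 32 cells without periderm genes held 39.8 CPM (26.0 to 58.3), a ratio of 21.9 (3.61 to 899.8). Against the latter cells alone the mesenchyme was 1.60-fold higher (1.05 to 2.52), which is not 2-fold. Ptch1 went the other way, with 29.0 CPM (16.6 to 47.1) in the cells with periderm genes and 12.2 CPM (5.28 to 24.1) in those without, a ratio of 0.422 whose interval held 1 (0.156 to 1.05). At E15.5, 23 Krt8/Krt18-rich cells had periderm genes, and these held Gli3 at 22.5 CPM against 63.9 CPM in the other 423 (2.84, 1.76 to 4.90) and no Ptch1 UMI.

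**Figure D2:**
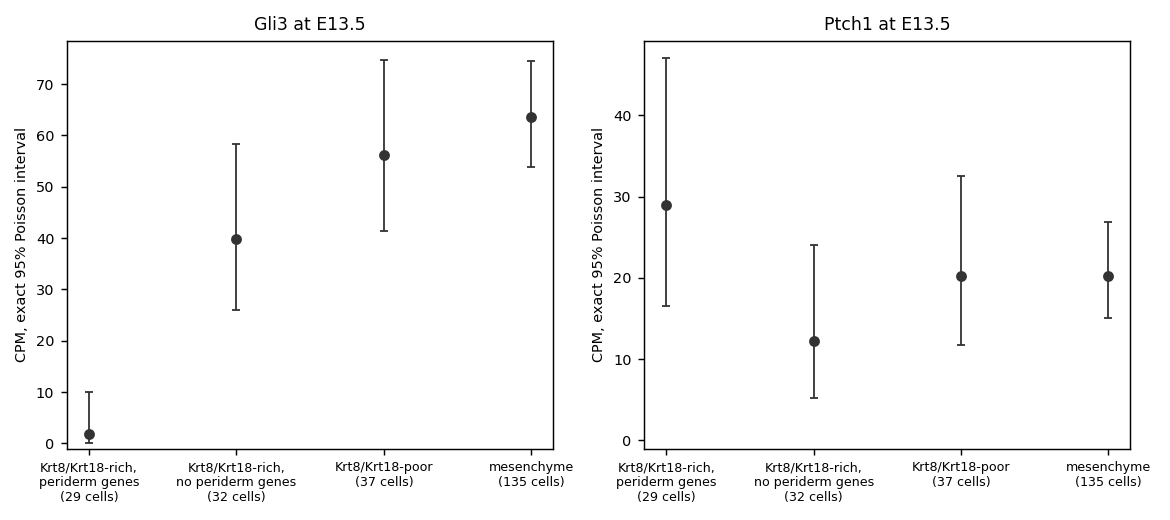
CPM of Gli3 (left) and Ptch1 (right) at E13.5 in Krt8/Krt18-rich epithelial cells with and without periderm genes, Krt8/Krt18-poor epithelial cells and mesenchymal cells, with exact 95% Poisson intervals. Gli3 is at 1.81 CPM in the 29 cells with periderm genes and at 39.8 CPM in the 32 without, while the Ptch1 intervals overlap.

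Counted together, the members were more often called higher than lower in the mesenchyme relative to the Krt8/Krt18-rich epithelium. Of the members with enough UMIs, 5 of 7 were called higher at E13.5 (20.5% of 10282 genes), 2 of 6 at E14.5 (17.9% of 8255), 4 of 7 a day later (22.0% of 12963) and 4 of 6 at birth (18.5% of 10483). Gli1 and Gli2 were among them at all 4 stages. Gli3 at E14.5 was the single member called lower, where 14.51% of genes were, and at the other stages 10.1%, 16.3% and 23.9% of genes were called lower. The median log2 ratio of the members was 1.50, 0.89, 1.84 and 1.45 from E13.5 to P0, beside 0.19, -0.02, 0.08 and -0.30 over all genes, with genes at 0 on a side entered at their bound. With the periderm cells left out, 3 members were called higher at E13.5. Thinned to 5000 UMIs per cell, 2 were called at E13.5 and 0 at E14.5.

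**Figure D3:**
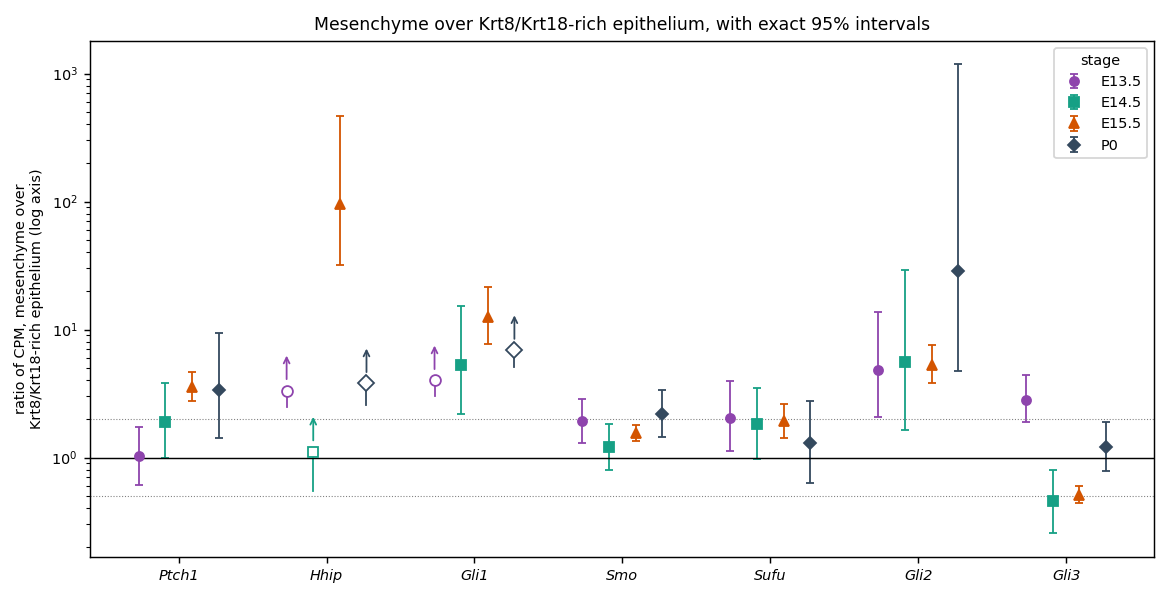
Ratio of CPM in the mesenchyme over CPM in the Krt8/Krt18-rich epithelium (log axis) for 7 members at each stage, with exact 95% intervals. Open symbols with arrows are ratios computed from 3 counts in place of 0 epithelial UMIs, and dotted lines mark 2-fold. The ratios for Gli1 and Gli2 lie above 2 at every stage, that for Hhip reaches 95.6 at E15.5, and Gli3 crosses from 2.84 at E13.5 to 0.459 at E14.5.

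Against the whole epithelium, 4 of 7, 3 of 6, 5 of 7 and 4 of 6 members were called higher in the mesenchyme from E13.5 to P0, beside 20.7%, 16.8%, 22.3% and 18.4% of all genes, and none lower, beside 9.81%, 13.4%, 16.2% and 23.8%. The 5 of E15.5 were Ptch1, Gli1, Gli2, Hhip and Sufu. Against the Krt8/Krt18-poor epithelium, 3 of 7, 3 of 6 and 4 of 7 members were called higher from E13.5 to E15.5, beside 22.4%, 18.5% and 28.2% of genes, and none lower, beside 7.35%, 9.40% and 11.0%. Between the epithelial classes, Gli3 was lower in the Krt8/Krt18-rich cells of E13.5 (0.398, 0.239 to 0.653), as 3.27% of genes were, and no member was called higher there, as 8.50% were. That call was lost without the periderm cells, at 0.708 (0.421 to 1.17). No member was called in either direction at E14.5 (9.07% of genes higher and 4.28% lower). At E15.5 Ptch1 and Gli1 were lower (3.69% of genes) and Sufu higher (8.59%).

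Ordered by level over the 11 stage-by-class groups, few neighbours differed beyond their counting error. Of 90 neighbouring pairs over the 9 genes, 8 had a ratio whose interval lay above 1, whatever its size. The mesenchyme of E14.5 headed the order for Gli1, at 45.3 CPM against 19.6 CPM in the next group, and for Sufu, at 41.8 against 23.7 CPM (1.76-fold, 1.12 to 2.74). For Hhip the mesenchyme of E15.5 came first, at 23.4 against 8.30 CPM. The Krt8/Krt18-rich epithelium of P0 was the lowest group for Ptch1, Smo and Gli2, each below the next one up by an interval on a single side of 1.

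Within the mesenchyme, cells were split by marker genes named by the study. Esr1, Lef1 and Crabp1 stood for its sub-epithelial mesenchyme, next to the bud, and Plagl1 and Cdkn1c for its dermal mesenchyme, farther away. Vcan, which the study also found enriched around the bud, was left out. The split is a range and not a cell type. At E15.5, 167 cells fell on the sub-epithelial side and 109 on the dermal side, with median depths of 27010 and 21700 UMIs. The sub-epithelial side held more RNA of the cycle gene Mki67, at 149 against 56.2 CPM (2.64-fold, 2.19 to 3.20). Top2a was higher there too, at 475 against 131 CPM (3.63-fold, 3.22 to 4.09). Hhip stood at 29.2 against 13.3 CPM (2.19-fold, 1.49 to 3.33), Sufu at 16.3 against 7.49 CPM (2.18-fold, 1.29 to 3.87) and Ptch1 at 30.3 against 17.5 CPM (1.73-fold, 1.22 to 2.51). Hhip and Sufu were the 2 of 7 members called higher (5.95% of genes), and none was lower (6.58%). Gli1 did not follow them, at 20.3 against 18.7 CPM (1.09, 0.754 to 1.58), nor did Smo, with 258 against 120 UMIs (1.09, 0.878 to 1.37). The Hhip ratio was 1.97 (1.17 to 3.42) without cells that held at least 2 UMIs of the cycle genes Mki67 and Top2a, and the Sufu ratio 1.60 (1.01 to 2.62) with up to 10% mitochondrial UMIs.

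Hhip and Ptch1 were called higher on the sub-epithelial side at E13.5 as well, where it held 26 cells and the dermal side 106 (2 of 7 members, 4.16% of genes, and none lower, 4.82%). Hhip was at 27.8 against 4.14 CPM (6.72-fold, 2.53 to 19.0), on 12 UMIs in 4 cells against 8 UMIs in 6 cells. Of these 12 UMIs, 5 lay in 1 cell. Ptch1 was at 37.1 against 17.1 CPM (2.17-fold, 1.12 to 4.06). Leaving out the Ptch1-richest cell of each side gave 1.77 (0.799 to 3.63) for Ptch1, and leaving out the cycling cells gave 1.30 (0.431 to 3.30). Gli3 was at 107 against 54.8 CPM (1.94-fold, 1.34 to 2.77) and Gli1 at 9.27 against 10.3 CPM (0.896, 0.223 to 2.68).

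At E14.5 only 10 cells lay on the sub-epithelial side, against 21. There Gli1, at 87.7 against 26.1 CPM (3.37-fold, 1.68 to 6.94), and Ptch1, at 83.9 against 17.4 CPM (4.83-fold, 2.20 to 11.4), were the 2 of 6 members called higher (6.13% of genes), with none lower (8.31%). At P0 the mesenchyme was split by Pi16 and Dpp4 (133 cells) and by Fabp4 and Col15a1 (104 cells), fibroblast and adipogenic genes. None of the 3 members with enough UMIs, Smo, Gli2 and Gli3, was called (5.78% of genes higher and 5.38% lower), and Gli1, with 18 UMIs and so under the minimum, had 2.24 CPM on the Pi16 side and 17.0 CPM on the adipogenic side (0.132, 0.0244 to 0.465).

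**Figure D4:**
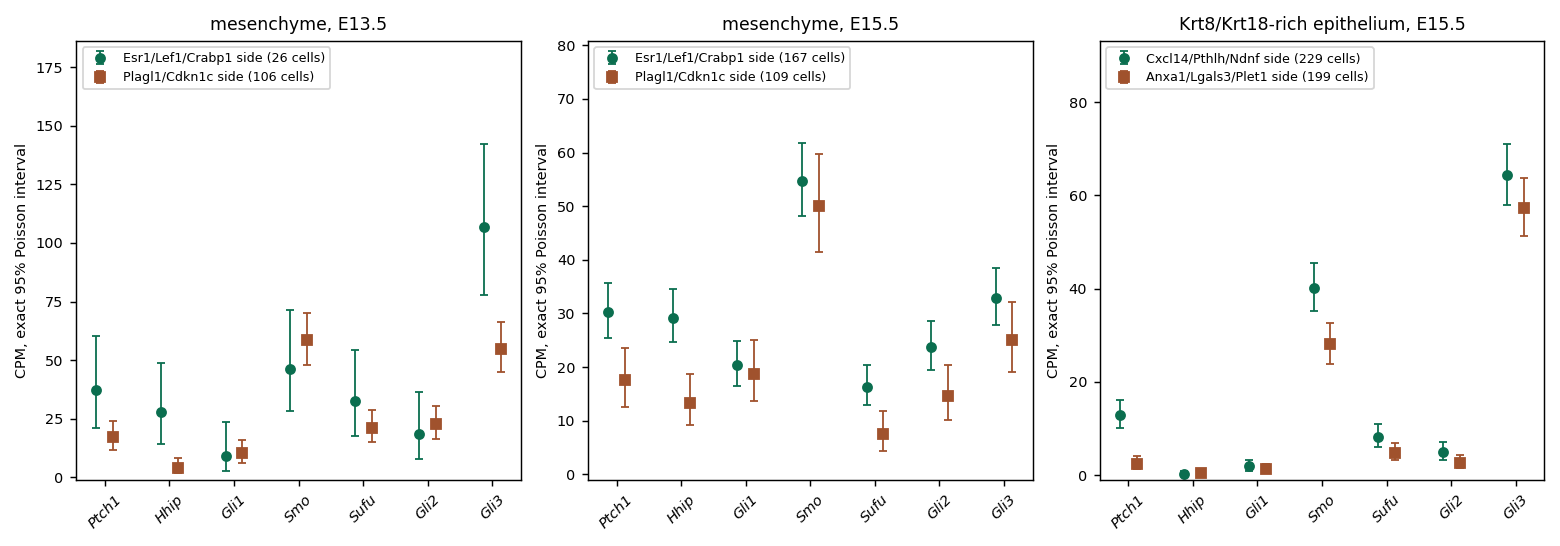
CPM of 7 members, with exact 95% Poisson intervals, on the sub-epithelial side (Esr1, Lef1, Crabp1) and dermal side (Plagl1, Cdkn1c) of the mesenchyme at E13.5 and E15.5, and on the basal side (Cxcl14, Pthlh, Ndnf) and luminal side (Anxa1, Lgals3, Plet1) of the Krt8/Krt18-rich epithelium at E15.5; cell numbers are in the keys. Hhip is higher on the sub-epithelial side in both mesenchymal panels, at 27.8 against 4.14 CPM (12 and 8 UMIs) and 29.2 against 13.3 CPM, and Ptch1 on the basal side of the epithelium, at 12.8 against 2.40 CPM.

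Within the Krt8/Krt18-rich epithelium of E15.5, Ptch1 followed the basal side. Cells were split by Cxcl14, Pthlh and Ndnf (basal side, 229 cells) and by Anxa1, Lgals3 and Plet1 (luminal side, 199 cells), with median depths of 23980 and 26246 UMIs. Ptch1 stood at 12.8 CPM on the basal side and 2.40 CPM on the luminal side, 5.32-fold (2.98 to 10.2), and was the 1 of 5 members called higher (5.01% of genes), with none lower (2.71%). Smo at 40.1 against 28.1 CPM (1.43, 1.17 to 1.75) and Sufu at 8.22 against 4.79 CPM (1.72, 1.06 to 2.83) differed by less than 2-fold, and Gli3 stood at 64.3 against 57.2 CPM (1.12, 0.968 to 1.31). Gli1 had 11 and 7 UMIs. At P0, 16 cells with at least 5 UMIs of the smooth muscle genes Acta2, Myh11 and Mylk stood against 212 others, and of the 2 members with enough UMIs neither was called (5.49% of genes higher, 6.84% lower).

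Cells were also split by whether a Gli1 UMI was found in them. Among mesenchymal cells of E15.5, 101 had a Gli1 UMI and 182 had none, with median depths of 27166 and 23005 UMIs. Ptch1 stood at 30.2 against 23.8 CPM in them (1.27, 0.943 to 1.70) and Hhip at 16.3 against 28.1 CPM (0.580, 0.405 to 0.817). Besides Gli1, which made the split, no member was called there (1.24% of genes higher, 1.54% lower). At E14.5 Ptch1 was 3.44-fold higher in the 15 cells with Gli1 than in the 16 without (1.38 to 10.2), 1 of 2 members called higher with Gli1 itself (6.79% of genes, and 3.01% lower), with depths of 30418 and 22890 UMIs. The cycle genes Mki67 (3.14-fold, 2.22 to 4.51) and Top2a (2.98-fold, 2.43 to 3.67) were also higher in those 15 cells. At E13.5, 14 of 135 cells had Gli1, Ptch1 differed by 1.20-fold (0.455 to 2.70), and Gli3 was lower in them, at 30.6 against 68.1 CPM (0.450, 0.202 to 0.878), the 1 member lower there (1.65% of genes), with Gli1 alone higher (3.38%). At P0, 14 of 273 cells had Gli1, and no member besides it was called (2.50% of genes higher, 1.48% lower).

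The Krt8/Krt18-rich cells of E15.5 that had a Ptch1 UMI, 61 of 446, held Gli2 at 8.37 CPM against 3.21 CPM in the others (2.60-fold, 1.29 to 4.98), one of 2 members called higher, the other being Ptch1 itself (2.88% of genes higher, 1.47% lower). Median depths were 23773 and 25079 UMIs. Gli3 was at 76.5 against 58.9 CPM (1.30, 1.07 to 1.57) and Gli1 at 2 against 17 UMIs (0.744, 0.0833 to 3.13). The same cells held more of the bud genes Tbx3, at 90.3 against 30.6 CPM, and Ndnf, at 149 against 70.9 CPM, but less Krt8, at 744 against 1133 CPM (0.657, 0.619 to 0.696), and Krt18, at 597 against 737 CPM (0.810, 0.758 to 0.865). Tbx3 and Ndnf were picked from the list of bud genes after their values were seen, and the other genes of that list are not given here. Ndnf also helped to define the basal side, on which Ptch1 was higher. The mean number of the 9 members with a UMI in a cell was 3.26 in the mesenchyme and 2.52 in the Krt8/Krt18-rich cells of E14.5, 2.81 and 1.67 at E15.5, and 0.663 and 0.377 at P0. After thinning to 5000 UMIs, these means were 1.13 and 0.652, 0.717 and 0.525, and 0.414 and 0.167.

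From stage to stage, the levels of several members were lower at P0 than before it. The stages differ in library, and the E15.5 counts came from an earlier version of the counting software with 31053 listed genes instead of 32285, so these values are descriptions of the libraries. In the mesenchyme, Ptch1 (0.349, 0.216 to 0.539), Gli1 (0.408, 0.242 to 0.654) and Hhip (0.187, 0.0918 to 0.344) were lower at P0 than at E15.5, 3 of 7 members beside 26.3% of genes, and none was higher, beside 13.9%. Against E13.5, 4 of 7 were lower at P0, Ptch1, Gli2, Gli3 and Sufu, beside 34.7% of genes, and again none was higher, beside 13.9%. Gli1 was 4.55-fold higher at E14.5 than at E13.5 (2.66 to 7.93; 5.23% of genes) and Gli3 lower (0.394, 0.237 to 0.625; 3.62%). Hhip was 4.91-fold higher at E15.5 than at E14.5 (1.88 to 18.2; 4.10%), while Gli1 (0.431, 0.300 to 0.634) and Sufu (0.317, 0.213 to 0.481) were lower (13.1%).

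In the Krt8/Krt18-rich epithelium, 4 of 5 members were lower at P0 than at E15.5, beside 16.5% of genes, and none was higher, beside 14.3%. Gli3 was at 0.258 of its E15.5 level (0.184 to 0.354), Smo at 0.395 (0.271 to 0.558), Ptch1 at 0.368 (0.144 to 0.789) and Gli2 at 0.0985 (0.00244 to 0.576), and Sufu, at 0.844 (0.453 to 1.47), was not called. Compared with E13.5, Ptch1 (0.136, 0.0494 to 0.325) and Smo (0.465, 0.283 to 0.766) were lower at P0, 2 of 4 members beside 18.0% of genes, with none higher (16.1%). Without the cells with periderm genes at either stage, Gli3 (0.388, 0.223 to 0.681) was lower too. At P0 these were 39 of 228 cells, and whether they were periderm was not tested. Gli3 in the other P0 cells over those 39 was at 0.901 (0.431 to 2.06). Smo and Gli3 were higher at E14.5 than at E13.5 (2 of 4 members, 14.2% of genes, with none lower, 6.41%). Both calls were lost without the periderm cells of E13.5, at 1.72 (1.01 to 2.99) for Smo and 1.37 (0.813 to 2.36) for Gli3. Ptch1, Gli1 and Sufu were lower at E15.5 than at E14.5 (3 of 6, 14.1%, with none higher, 3.95%). The Gli1 ratio of 0.180 in the last comparison became 0.937 (0.148 to 39.0) without the Gli1-richest cell of each stage.

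Other genes of the pathway were read from 4 lists, with the same comparison of mesenchyme over Krt8/Krt18-rich epithelium. Among the co-receptors at the cell surface, Gas1, Cdon and Boc, which bind the ligand beside Patched, were higher in the mesenchyme at all 4 stages. At E15.5 Gas1 was at 176 against 11.1 CPM (15.8-fold, 13.2 to 19.0), Cdon at 58.5 against 7.27 CPM (8.06-fold, 6.40 to 10.2) and Boc at 39.3 against 7.67 CPM (5.12-fold, 4.04 to 6.53). Of the 6 genes of this list with enough UMIs, 5 were called higher at each embryonic stage (20.5%, 17.9% and 22.0% of all genes) and none lower (10.1%, 14.51% and 16.3%).

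The genes of ligand release were also mostly mesenchymal. Disp1, which frees the lipid-bearing ligand from the cell that makes it, was 3.69-fold, 3.08-fold, 16.1-fold and 9.09-fold higher in the mesenchyme from E13.5 to P0. At E15.5, 3 of 5 genes were called higher (22.0% of all genes) and Scube3, a secreted carrier of the ligand, lower (16.3%), at 8.40 against 18.2 CPM (0.462, 0.342 to 0.615). Of 18 genes of the cilium and of signal transduction, 3 were called higher at E15.5 (22.0% of all genes) and none lower (16.3%), with a median log2 ratio of 0.14. The 3 were Gprasp2 (2.20-fold, 1.67 to 2.91) and the ciliary pair Evc (5.46-fold, 3.31 to 9.38) and Evc2 (2.60-fold, 1.80 to 3.79), whose proteins relay the signal from Smoothened. Kif7, a ciliary kinesin, was not called there (18 of 18 had enough UMIs).

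Of 17 genes reported elsewhere as Hedgehog targets, 12 had enough UMIs at E15.5, 7 were called higher in the mesenchyme (22.0% of all genes) and 2 lower (16.3%). Osr1 (24.0 against 0.163 CPM, 147-fold, 40.0 to 1222) and Osr2 (42.4 against 0.0816 CPM, 519.6-fold, 92.6 to 20590) led the higher ones. Fst, an activin antagonist, was at 86.8 against 1252 CPM (0.0693, 0.0639 to 0.0750) and Ccnd2, a G1 cyclin, at 613 against 1663 CPM (0.368, 0.357 to 0.381). Osr1 and Osr2 are also general genes of connective tissue. Between the sub-epithelial and the dermal side of E15.5 none of the 12 was called higher (5.95% of genes) and 4 were called lower (Osr2, Igfbp6, Sfrp1 and Fst, 6.58%), the opposite side from Hhip and Sufu. Between those sides Gpc3 and Gpc4, glypicans that bind the ligand, were lower on the sub-epithelial side, Gpc3 at 89.0 against 682 CPM (0.130, 0.117 to 0.145).

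**Figure D5:**
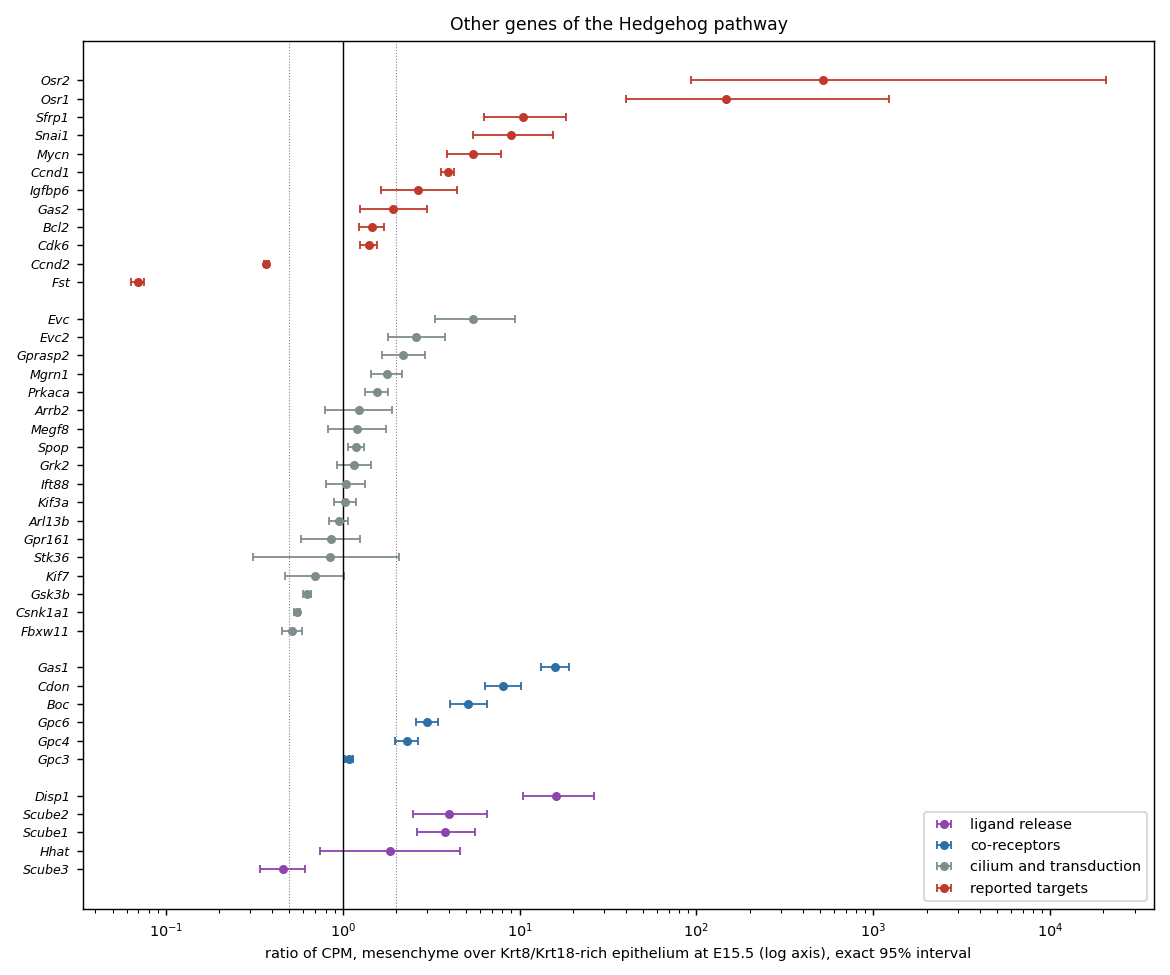
Ratio of CPM in the mesenchyme over CPM in the Krt8/Krt18-rich epithelium at E15.5 (log axis, exact 95% intervals) for the other pathway genes with at least 20 UMIs, grouped by list; dotted lines mark 2-fold. The co-receptors Gas1, Cdon and Boc lie at 15.8, 8.06 and 5.12, most genes of the cilium and transduction lie near 1, and Fst lies at 0.0693.

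Over the 11 stage-by-class groups, the genes with the levels most like each member's were listed as a description, by Pearson's r of log2(CPM + 1) among 12681 genes with at least 50 UMIs. The groups share 4 libraries and differ in depth. Ptch1 was nearest to Meis2 (0.930), Tcf7l2 (0.926) and Sh3bp1 (0.916), Gli1 to Glb1l (0.960), Cd83 (0.947) and Shank3 (0.934), and Hhip to Slc43a1 (0.973), Grin3a (0.938) and Pip4k2a (0.936). Smo was nearest to Cdc23 (0.948), Sema3a (0.940) and Eif4a2 (0.931), Sufu to Cluap1 (0.967), Abcd4 (0.962) and Gon4l (0.962), Gli2 to Dstyk (0.937), Abhd8 (0.934) and Rasl11b (0.928), and Gli3 to Foxred2 (0.900), Ndufaf5 (0.883) and Cdc40 (0.869). Among the members themselves, the highest values were those of Gli1 and Smo (0.818), Ptch1 and Smo (0.804), Ptch1 and Gli2 (0.755), Smo and Gli2 (0.751) and Gli1 and Hhip (0.748). The response gene Ptch1 stood at 0.557 with Gli1 and 0.367 with Hhip, and Gli3 was near 0 with Gli1 (0.062) and Hhip (-0.039).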

How the data were processed

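Raw UMI counts were deposited by the authors as a table for each stage. The submitters' notes name Cell Ranger 6.0.0 and the mm10 genome, and the table headers give version 3.1.0 at E15.5 and 6.0.0 elsewhere. The tables held 981, 807, 2642 and 1466 barcodes, each with at least 500 UMIs. Kept cells (at least 5000 UMIs, at most 6% mitochondrial) held 4506046, 2111282, 21559040 and 5122125 UMIs. No kept barcode was shared between libraries. The authors gated out doublets in the sort and no doublet caller was run; 5, 0, 9 and 10 cells held at least 5 UMIs and 10% of both tissue gene sums and were left out in an alternative.

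From these counts, UMIs were summed per class and given as CPM. Members are those of the pathway by name, other pathway genes come from fixed lists by their largest folds, and similar genes are the 3 with the highest r. Members and lists were chosen with earlier results of these data known. The intervals and calls were run on simulated Poisson sums with the E15.5 totals. There 95.7% of intervals held the true ratio, and 46.0% of genes changed 2-fold were called. The intervals rest on the same Poisson model and the simulation had no variation between cells, so it checks only the computation. Gene positions are from GENCODE M21 (GRCm38). Python 3.11.15, numpy 2.4.6, scipy 1.17.1, pandas 2.3.3 and matplotlib 3.10.9 were used. Alternatives covered the UMI minimum (3000), the mitochondrial maximum (10%), thinning, means over cells, mixed cells, cells with UMIs of other cell type lists, the richest cell, and 2 or 10 UMIs of Krt8 and Krt18. Leaving out periderm cells and cycling cells was added after seeing the data, as were the mesenchymal sides of E14.5, the split by Ptch1, the alternatives for the basal and luminal sides and for P0 fibroblasts. 1 gene of the lists is not reported here.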

Additional observations from a re-analysis of the deposited data

Results flagged for a closer look

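The difference in Gli3 between mesenchyme and Krt8/Krt18-rich epithelium pointed opposite ways at E13.5 and E14.5, past the 2-fold rule at both. The log2 ratio of mesenchyme over epithelium was 1.50 at E13.5 and -1.12 at E14.5, with 1 library each, and the difference between the stages was not tested. At E13.5, 29 of the 61 epithelial cells had periderm genes and held 1 of the 27 Gli3 UMIs, and without them the log2 ratio was 0.68. At E14.5 no epithelial cell of the class reached 2 UMIs of Gabrp, Krt4 and Krt6a. The longer periderm list, which adds Grhl3 and Sprr3, was at 244 CPM in that class, against 643 CPM at E13.5. It was at 285 CPM in the Krt8/Krt18-rich class of E15.5, where 23 of 446 cells had periderm genes. The study names Grhl3 as a gene of its luminal-like mammary cluster of E15.5, so this sum does not measure periderm cells alone. The Gli3 values of E14.5 rest on 38 UMIs in 23 epithelial cells and 21 UMIs in 31 mesenchymal cells.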

How the results depend on the processing

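Of 64 called ratios of single members, giving 521 values under the alternatives, 455 stayed called, 66 lost the call and 0 changed direction. The 64 leave out mesenchyme over Krt8/Krt18-poor epithelium, the mesenchymal sides of E14.5 and the splits by Gli1 and Ptch1. Calls in those comparisons were not put to these alternatives. Leaving out mixed cells lost 0 of 64, and thinning to 5000 UMIs, by which most UMIs are dropped, lost 31 of 61. The counts of members called in a single direction of a comparison (lower for P0 over E13.5, higher elsewhere unless named lower) moved by over 1.5 times as follows. In Krt8/Krt18-rich over poor at E15.5 the 1 member called higher was Sufu. A count of 0 there concerns Sufu and not Ptch1 and Gli1, the 2 members called lower. Thinning gave 0 higher in mesenchyme over whole epithelium at E14.5, 2 and 0 in mesenchyme over Krt8/Krt18-rich epithelium at E13.5 and E14.5, 0 in Krt8/Krt18-rich over poor at E15.5, 0 and 1 in the sub-epithelial over the dermal side at E13.5 and E15.5, 0 in the basal over the luminal side at E15.5, and 2 and 0 lower in P0 over E13.5 for mesenchyme and Krt8/Krt18-rich epithelium. A mitochondrial maximum of 10% gave 4 higher in mesenchyme over Krt8/Krt18-rich epithelium at E14.5, 0 in Krt8/Krt18-rich over poor at E15.5, 1 on the sub-epithelial side and 2 on the basal side at E15.5. Krt8/Krt18-rich over poor at E15.5 gave 0 also with a UMI minimum of 3000, with cells of other lists left out and with 10 UMIs of Krt8 and Krt18, and 1 at E14.5 with 2 UMIs. The sub-epithelial side of E13.5 gave 1 with means over cells and 1 without the richest cell, and that of E15.5 gave 1 without cycling cells. Without periderm cells, mesenchyme over Krt8/Krt18-rich epithelium gave 3 at E13.5 and, lower, 1 at E15.5, Krt8/Krt18-rich over poor gave 0 lower at E13.5, and E14.5 over E13.5 in Krt8/Krt18-rich epithelium gave 0 higher. Leaving out cells of other lists dropped 156 of the 446 Krt8/Krt18-rich cells of E15.5 through the Schwann and neural list, in which Erbb3 made up 1790 of 1812 UMIs, at 146 CPM there and 4.68 CPM in the mesenchyme. Through the pericyte list it dropped 103 of the 273 mesenchymal cells of P0. The causes were not tested. No paired analysis was possible because each stage has 1 library. Levels near 1 UMI per class, as for Shh and Ihh, are below what this depth resolves.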
